A study of Mus musculus with 2 samples.

Results

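Chemokines and chemokine receptors were taken from single-nucleus RNA sequencing of mouse mesenteric perivascular adipose tissue, the fat around the vessels of the gut. The members are all genes of the count tables named Ccl, Cxcl, Ccr, Cxcr or Ackr with a number and at most 1 trailing letter, together with Xcl1, Xcr1, Cx3cl1 and Cx3cr1. That rule found 66 of 32285 genes, with 60 different symbols: 44 ligand genes (38 symbols), 18 receptors and 4 atypical receptors. The rule used names only and no measured value.

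The study has 2 libraries, each from mice of 11 weeks. The first is labelled Prdm16 cKO, meaning that it carries floxed Prdm16 alleles and a Cre recombinase under the promoter of the adipocyte gene Adipoq (genotype label "Prdm16flox, AdopiQCre+"). The second carries the floxed alleles without Cre (genotype label "Prdm16flox", title "wt") and is called the flox control, so both libraries share the floxed alleles. Prdm16 is a transcription factor of thermogenic fat. Fat was snap-frozen and nuclei were purified on an iodixanol gradient before 10x Genomics 3' counting. The sample labels name mesenteric fat and nuclear RNA, which are followed here, while the title of the series names thoracic and abdominal fat and total RNA, and the sources used here do not settle which is right. There is 1 library per genotype, the labels used here do not say how many animals each one pooled, and no sex is given. No difference between genotypes can therefore be set against the spread between animals. All intervals are 95% intervals for counting error only, and no test between genotypes was possible.

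The cKO-labelled library held 7374 nuclei after filtering (62275986 unique molecular identifiers or UMIs, each standing for 1 captured RNA molecule, median 6521.5 per nucleus), and the flox control held 10532 (92779065 UMIs, median 7035). The libraries shared 28 cell barcodes. Prdm16 itself did not check the label of the cKO library: in adipocyte-like nuclei it had 22.3 CPM (counts per 1e6 UMIs of the class; 872 UMIs) there against 16.6 CPM (963 UMIs) in the flox control, and 3' counts need not cover the floxed part of the gene. The genotype is therefore written as labelled throughout. Nuclei were grouped into classes from markers fixed by name. Clusters 4, 17 and 19 stayed unnamed. Clustering left the members out, so a member's class did not come from the member itself.

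Chemokines are small secreted proteins that guide cells by binding G protein-coupled receptors. CC and CXC chemokines are named for adjacent or singly spaced cysteines near the start of the mature protein, and many act in sets on shared receptors. Conventional receptors signal through G proteins to migration. Atypical receptors bind chemokines, lack the usual coupling and remove or present the ligand. In adipose tissue the family is best known for bringing monocytes, eosinophils and lymphocytes into the fat pad.

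The spacing that gives the families their names can be read in the genes measured here. Coding stretches of 6 ligands are printed 5′ to 3′ on the coding strand, with the hallmark cysteine codons in capitals. Each stretch has 12 bases before the first of these codons and 6 codons after the last. They come from GENCODE M21 transcripts on GRCm38, the assembly also called mm10, and were chosen because the results below turn on these genes.
Ccl6 (chr11:83589368-83589403, minus strand): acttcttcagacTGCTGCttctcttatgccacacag
Ccl9 (chr11:83575908-83575943, minus strand): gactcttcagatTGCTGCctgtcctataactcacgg
Ccl11 (chr11:82061684-82061719, plus strand): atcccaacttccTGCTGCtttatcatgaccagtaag
Cxcl12 (chr6:117171496-117171534, plus strand): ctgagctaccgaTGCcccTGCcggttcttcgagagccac
Cxcl13 (chr5:95958652-95958690, plus strand): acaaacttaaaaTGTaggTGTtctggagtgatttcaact
Cx3cl1 (chr8:94778039-94778083, plus strand): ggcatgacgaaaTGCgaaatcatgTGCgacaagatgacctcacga
The first 3 have adjacent cysteine codons, Cxcl12 and Cxcl13 have 1 codon between them, and Cx3cl1 has 3. Of 37 ligand genes with a coding transcript in that annotation, 23 had the CC spacing, 12 the CXC spacing and 1 the CX3C spacing. Xcl1, whose protein lacks one cysteine of the pair, had none.

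A second pair of lines shows why counts of one ligand cannot be assigned with certainty. Ccl21a and its near copy Ccl21b, which had no UMI here, carry the following stretches on chromosome 4.
Ccl21a (chr4:42773717-42773752, minus strand): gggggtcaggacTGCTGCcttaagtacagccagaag
Ccl21b (chr4:42255933-42255968, plus strand): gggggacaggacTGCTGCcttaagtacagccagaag
The copies of Ccl21, Ccl27 and Ccl19 are near-identical, so counts listed for Ccl21a, Ccl27a and Ccl19 are uncertain as to copy.

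Receptors differ at the DRY box, the motif at the end of the third transmembrane helix that takes part in G protein coupling. The stretches below cover the motif's 7 residues, with codons in capitals where they encode the canonical residue.
Ccr2 (chr9:124106132-124106152, plus strand): GATAGGTACTTGGCTATTGTT
Ccr3 (chr9:124029029-124029049, plus strand): GACAGATACCTGGCTATCGTC
Cxcr5 (chr9:44513897-44513917, minus strand): GACCGGTACCTAGCCATCGTC
Cxcr6 (chr9:123810338-123810358, plus strand): GATCGTttcattgtagtgGTC
Ackr2 (chr9:121908978-121908998, plus strand): GACaaaTACCTGgagATTGTC
Ackr3 (chr1:90214241-90214261, plus strand): GACCGCTATCTCtccATCacc
Ackr4 (chr9:104099321-104099341, minus strand): GACAGATATtggGCAATTacc
All 7 residues were canonical in 11 of 18 conventional receptors and in 0 of 4 atypical ones. Matches were counted for every receptor at its best-matching window within a fixed range of codons. Ackr2, Ackr3 and Ackr4 had 5 of 7 and Ackr1 had 2. The Ackr1 window matched none of the D, R and Y residues, so its 2 matches do not mark a DRY box. Cxcr6 had 3, fewer than any other conventional receptor. A match is a description of these letters, and no statement on signalling follows from it.

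Of the 66 genes, 12 had no UMI in kept nuclei, 15 had between 1 and 49, and 39 had at least 50 over both libraries (21 ligands, 14 receptors and 4 atypical receptors). Together the members had 16007 UMIs in the cKO-labelled library and 25088 in the flox control, or 257 and 270 CPM. Receptor, ligand and atypical receptor genes differed in the classes that held them. Summed receptor levels were 562 CPM in cKO-labelled and 489 CPM in flox natural killer or innate lymphoid-like nuclei (here innate lymphoid-like), 524 and 648 CPM in dendritic-like nuclei, and 18.4 and 18.8 CPM in adipocyte-like nuclei. Most of the sum in the first 2 classes was Ccr2 alone. It had 385 and 345 CPM in innate lymphoid-like nuclei and 398 and 484 CPM in dendritic-like nuclei. Summed atypical receptor levels were highest in cluster 19, with 324 CPM (cKO-labelled) and 299 CPM (flox). Progenitor or fibroblast-like nuclei, here fibroblast-like, followed with 224 and 247 CPM. Adipocyte-like nuclei had 33.4 and 27.8 CPM and macrophage-like nuclei 14.5 and 22.5 CPM.

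The class with a member's highest level was the same in both libraries for 25 of the 39 members. In both libraries that class was a leukocyte class for 13 of 14 receptors, 9 of 21 ligands and 0 of 4 atypical receptors. Cluster 17 was counted as a leukocyte class. Some of these highest levels rested on few UMIs. In cKO-labelled and flox nuclei Ccr4 had 2 and 3, Ccl4 had 5 and 5, and Cxcl1 had 1 and 5. Ccr2 had 457 and 1031. The share of all genes leading in a leukocyte class is not given, so these counts have no background. For 11 members the class was the same and its interval lay apart from that of the next class in both libraries: Ccl21a, Cxcl12, Ccl11, Ccl9, Ccl6, Cxcr5, Cxcr6, Ccr3, Ccr6, Ackr4 and Ackr2. The shares of all genes that do so, or that keep the same leading class, are not given either. The 11 and the 25 of 39 members therefore describe these genes and do not set the family apart.

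**Figure D1:**
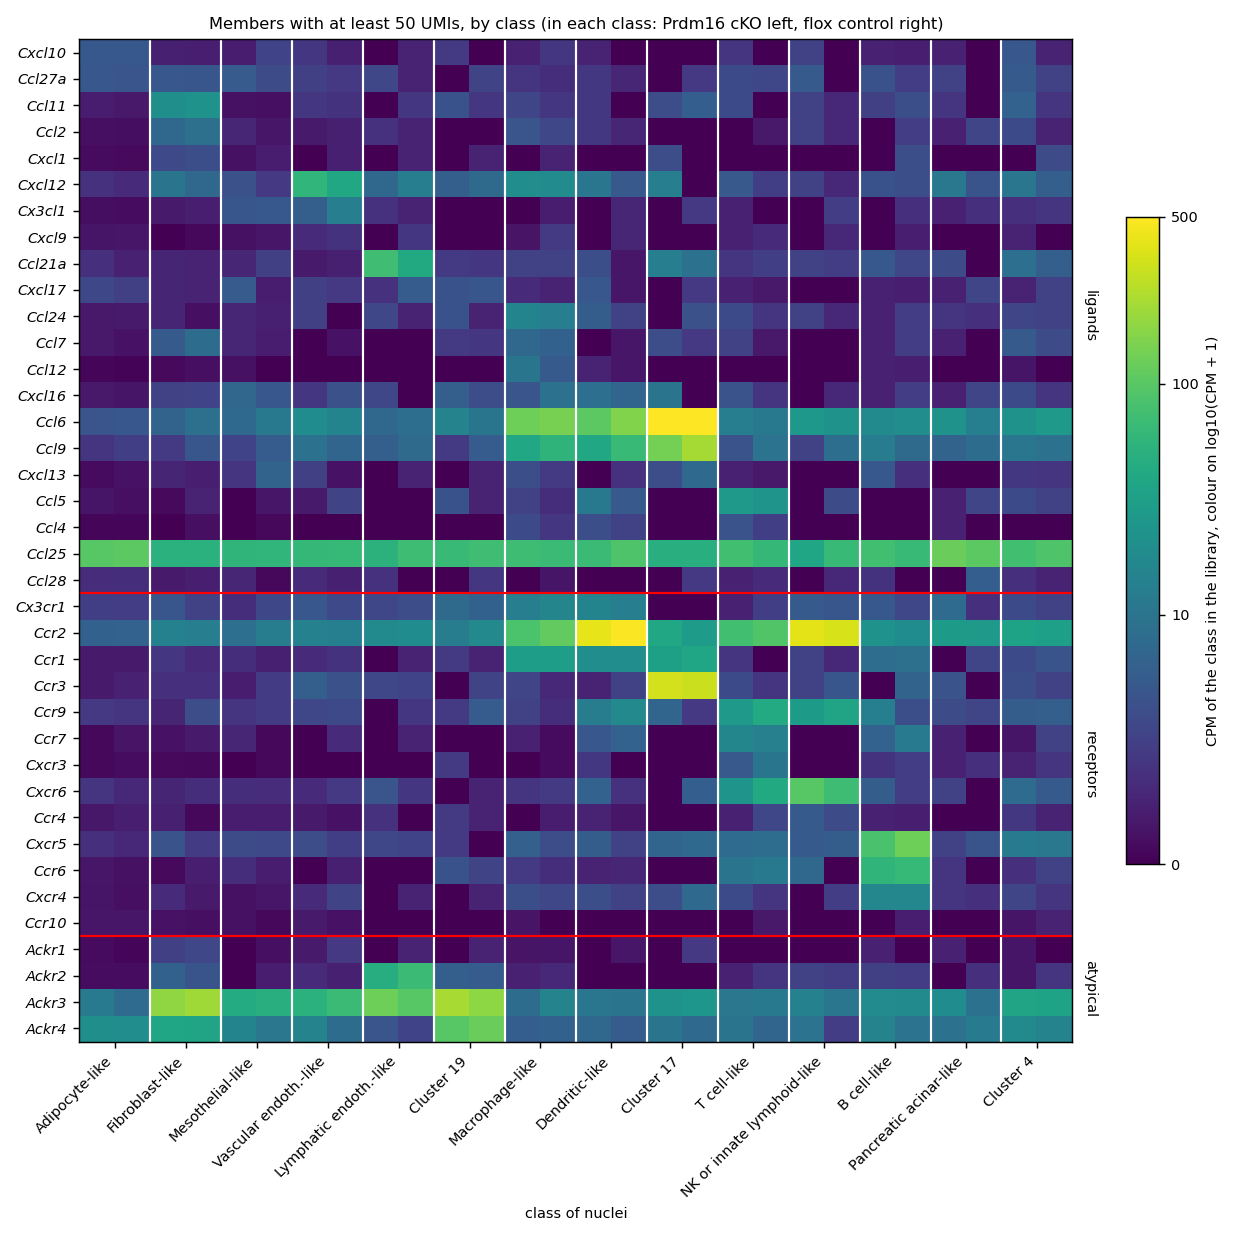
CPM of 38 members with at least 50 UMIs (rows, by role) in 14 classes of nuclei (columns; in each class the library labelled Prdm16 cKO is left and the flox control right), with colour on a log10(CPM + 1) scale. Receptors are bright in the leukocyte columns, Ackr3 and Ackr4 in fibroblast-like nuclei and cluster 19, and Ccl25 in every column.

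Cluster 17 carried the eosinophil receptor Ccr3 together with Ccl6 and Ccl9, CC chemokines of mouse myeloid cells that act on Ccr1. Ccr3 had 330 CPM (269 to 402) in the 105 cKO-labelled nuclei and 302 CPM (258 to 352) in the 186 flox nuclei. A Ccr3 UMI was found in 55.2% of cKO-labelled and 50.5% of flox nuclei of the cluster, against 0.646% and 0.98% of adipocyte-like nuclei. Cluster 17 had medians of 2609 and 2701 UMIs per nucleus and adipocyte-like nuclei had 11910 and 12111.5. After every nucleus was thinned to 1000 UMIs the Ccr3 shares in cluster 17 were 29.8% and 20.4%.

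Ccl6 had 515 CPM (438 to 603) in cKO-labelled and 519 CPM (460 to 583) in flox nuclei of cluster 17, and at least 1 UMI in 65.7% and 68.8% of them. In macrophage-like nuclei it had 126 and 140 CPM, and in dendritic-like nuclei 104 and 154 CPM. Ccl6 thus led in the same cluster as Ccr3 in both libraries, while macrophage-like nuclei held the larger number of its UMIs (331 and 659). Ccl9 had 135 CPM (97.2 to 184) and 215 CPM (178 to 257) in cluster 17.

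The cluster was left unnamed: 3 of 6 eosinophil markers passed, and its 10 leading genes held the neutrophil genes Retnlg and Mmp9 and no eosinophil marker. Siglecf and Il5ra, receptors of eosinophils, had 56.2 and 95.8 CPM in cKO-labelled and 27.3 and 94.7 CPM in flox nuclei. Retnlg had 178 and 133 CPM. The eosinophil granule genes Epx and Prg2 had no UMI in either library. Over the 6 eosinophil markers the summed level was 297 CPM (3 at 0) in cKO-labelled and 215 CPM (3 at 0) in flox nuclei, and over the 7 neutrophil markers 248 CPM (3 at 0) and 204 CPM (2 at 0).

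Ccr2, the receptor that monocytes and their descendants use to leave the marrow, was highest in dendritic-like nuclei. It had 398 CPM (362 to 436) in cKO-labelled and 484 CPM (454 to 514) in flox nuclei, with a UMI in 76.8% and 72.8% of them. Innate lymphoid-like nuclei followed with 385 CPM (328 to 449) and 345 CPM (308 to 384), so the first 2 classes overlapped in the cKO-labelled library and lay apart in the flox control. In these nuclei the innate lymphoid genes Il1rl1 and Gata3 had 782 and 512 CPM in cKO-labelled and 859 and 500.7 CPM in flox nuclei, and the natural killer receptor gene Ncr1 had 2.39 and 1.06 CPM. The name of the class rests on 3 of 11 markers that passed the naming rule, with Gata3 alone among its 10 leading genes. All 11 markers summed to 3552 CPM in cKO-labelled and 3485 CPM in flox nuclei (5 and 4 of them at 0), no higher than the 3825 and 3805 CPM in pericyte-like nuclei. Summed T cell markers in the class had 3745 and 3665 CPM, or 93.7% and 71.9% of their T cell-like level (2 and 1 of 9 at 0), so the class is not set apart from T cells by these sums. Macrophage-like nuclei had 85.8 and 111 CPM of Ccr2 and adipocyte-like nuclei 5.91 and 6.01 CPM, where a UMI in 7.52% and 7.28% of nuclei is read as the background share.

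Ccr1 had overlapping intervals in the myeloid classes, with 33.0 and 38.2 CPM in cluster 17, 31.6 and 31.6 CPM in macrophage-like nuclei, and 20.01 and 20.2 CPM in dendritic-like nuclei. Cx3cr1, the fractalkine receptor of tissue macrophages, had few UMIs: macrophage-like nuclei had 13.3 CPM (9.29 to 18.6) and 16.1 CPM (12.7 to 20.2), and dendritic-like nuclei 15.7 and 13.1 CPM, with overlapping intervals. Annotated genes overlap Cx3cr1 on its own strand (Gorasp1, Csrnp1 and Xirp1) and on the opposite strand. How strand was used in counting is not given in the sources used here.

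Macrophage-like nuclei also led for 2 ligands in both libraries. Ccl24, an eotaxin that binds Ccr3, had 15.6 CPM (11.2 to 21.2) and 13.3 CPM (10.3 to 17.1), and Ccl12, a monocyte attractant that binds Ccr2, had 10.3 CPM (6.78 to 14.98) and 4.87 CPM (3.09 to 7.31). Cxcl16, a membrane-bound ligand of Cxcr6, had 4.19 CPM (11 UMIs) in cKO-labelled and 9.11 CPM (43 UMIs) in flox macrophage-like nuclei, and led there in the flox control only.

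B cell-like nuclei carried the follicle-homing receptor Cxcr5 and the receptor Ccr6. Cxcr5 had 83.1 CPM (68.3 to 100.2) in cKO-labelled and 126 CPM (108.6 to 146) in flox B cell-like nuclei, with a UMI in 30.6% and 36.7% of them against 1.80% and 1.34% of adipocyte-like nuclei. Ccr6 had 57.4 and 63.1 CPM, against 10.0 and 11.4 CPM in T cell-like nuclei. Cxcr4, the Cxcl12 receptor that holds leukocytes in marrow and lymphoid tissue, had 161 UMIs over both libraries, and its 16.6 CPM in B cell-like nuclei of both libraries rested on 22 and 24 UMIs. B cell-like nuclei had median depths of 4311 and 3773 UMIs. Cxcr5 overlaps Bcl9l on the other strand.

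T cell-like and innate lymphoid-like nuclei shared Cxcr6, a receptor of tissue-resident lymphocytes, and Ccr9, the gut-homing receptor. Cxcr6 had 98.1 CPM (70.4 to 133) in cKO-labelled and 71.1 CPM (55.1 to 90.3) in flox innate lymphoid-like nuclei, and 23.9 and 42.4 CPM in T cell-like nuclei. Ccr9 had 27.03 CPM (18.8 to 37.6) and 44.1 CPM (35.0 to 54.8) in T cell-like nuclei, and 28.7 and 37.1 CPM in innate lymphoid-like nuclei, and the intervals of the 2 classes overlapped. The lymph-node-homing receptor Ccr7 had 16.2 and 14.1 CPM in T cell-like nuclei, and the type 1 receptor Cxcr3 had 4.63 CPM (6 UMIs) and 10.3 CPM (19 UMIs). Ccl5, made by activated T cells, led there too with 27.03 CPM (18.8 to 37.6) and 23.9 CPM (17.4 to 32.1). Ccr9 overlaps Slc6a20a and Lztfl1, and Cxcr6 overlaps Fyco1, all on the opposite strand. Ccr9 also overlaps Gm17200 on its own strand.

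**Figure D2:**
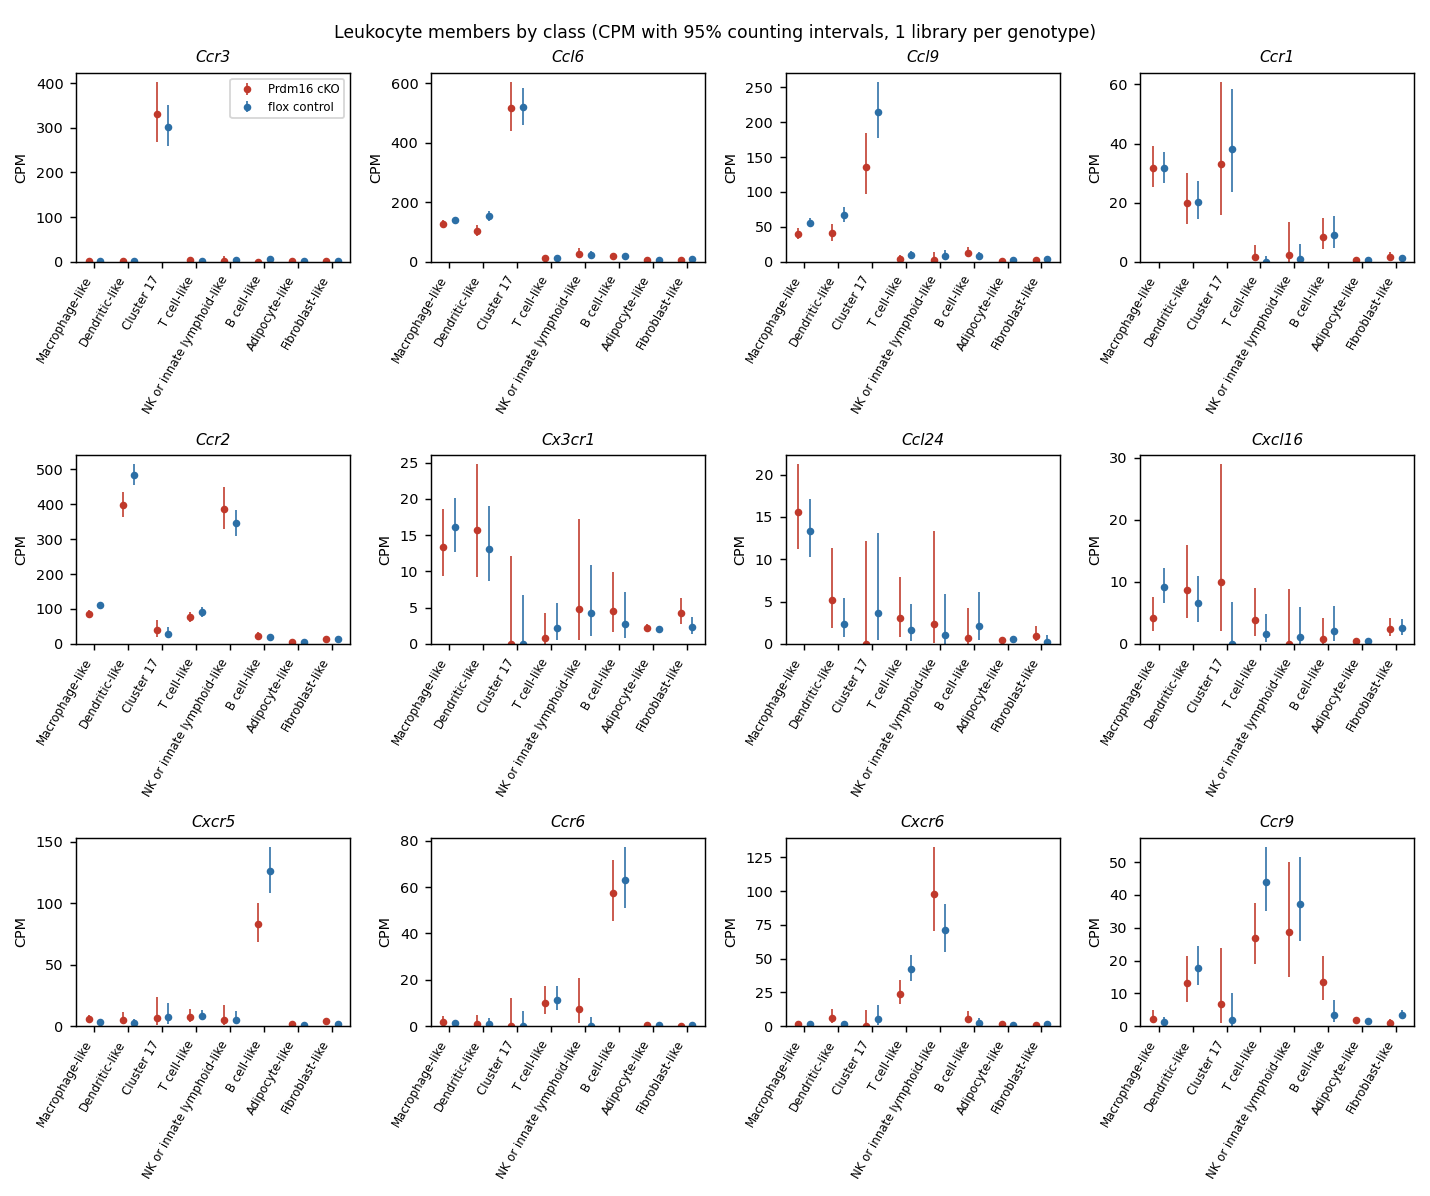
CPM (y axis, from 0, each panel on its own scale) of 12 members in 6 leukocyte classes and in adipocyte-like and fibroblast-like nuclei (x axis), with points for the library labelled Prdm16 cKO (red, left) and the flox control (blue, right) and bars for 95% counting intervals. Ccr3 stands in cluster 17, Ccr2 in dendritic-like and innate lymphoid-like nuclei, Cxcr5 and Ccr6 in B cell-like nuclei, and Cxcr6 in innate lymphoid-like nuclei.

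Stromal ligands had their highest levels in different endothelial and fibroblast-like clusters. Cxcl12, which retains leukocytes and progenitors through Cxcr4 and is taken up by Ackr3, had 59.2 CPM (48.5 to 71.6) in cKO-labelled and 39.8 CPM (32.6 to 48.0) in flox vascular endothelial-like nuclei. Within that class cluster 13, led by Flt1, had 90.1 CPM (72.7 to 111) and 88.1 CPM (71.1 to 108), while cluster 20 had 21.1 and 10.8 CPM and cluster 21 had 16.6 and 8.5 CPM. The cluster with most Cxcl12 was thus alike in both libraries, and it made up 169 of 290 cKO-labelled and 225 of 444 flox nuclei of the class. A Cxcl12 UMI was in 25.2% and 16.7% of vascular endothelial-like nuclei (median 4191.5 and 5009.5 UMIs), against 2.63% and 1.06% of T cell-like nuclei (median 3751 and 3639.5 UMIs).

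Cx3cl1, the membrane-anchored fractalkine of activated endothelium, marked another vascular cluster. In cluster 21, led by the arterial connexin gene Gja5, it had 19.4 CPM (7 UMIs) in cKO-labelled and 31.9 CPM (30 UMIs) in flox nuclei, against 1.96 and 1.89 CPM in cluster 13. Cluster 21 also held the most Prdm16 of the vascular clusters, with 896 CPM in cKO-labelled and 1044 CPM in flox nuclei. Mesothelial-like nuclei had 4.33 and 4.60 CPM of Cx3cl1.

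Lymphatic endothelial-like nuclei carried Ccl21a, the ligand that draws Ccr7-bearing dendritic cells and T cells into lymph, and Ackr2, a scavenger of inflammatory CC chemokines. Ccl21a had 72.9 CPM (54.4 to 95.5) in cKO-labelled and 42.9 CPM (31.9 to 56.4) in flox lymphatic nuclei, with a UMI in 29.6% and 19.8% of them (median 5172 and 4993 UMIs) against 0.877% and 1.06% of T cell-like nuclei. Ackr2 had 47.6 CPM (33.0 to 66.6) and 69.0 CPM (54.8 to 85.6). Outside this class Ackr2 was highest in fibroblast-like cluster 10, led by Pi16, with 18.2 and 10.0 CPM.

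Fibroblast-like nuclei led for the eosinophil attractant Ccl11 and for the monocyte attractant Ccl2 in both libraries. Ccl11, or eotaxin, had 21.1 CPM (17.4 to 25.3) in cKO-labelled and 23.2 CPM (19.8 to 26.96) in flox nuclei. It was split within the class: cluster 10 had 27 and 30.5 CPM and cluster 5 had 22.8 and 24.3 CPM, while cluster 14, led by Nkain3, had 0 and 1 UMI. Ccl2 had 7.21 CPM (39 UMIs) and 9.02 CPM (65 UMIs) over the class, and 14.7 and 15.7 CPM in cluster 10. Shares of nuclei with a Ccl11 UMI were 10.1% and 9.93% (median 5562 and 5754 UMIs), against 1.08% and 1.60% of B cell-like nuclei.

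The atypical receptors Ackr3 and Ackr4 were stromal. Ackr3, which clears Cxcl12, had 178 CPM (167 to 189.9) in cKO-labelled and 204 CPM (193 to 214) in flox fibroblast-like nuclei, with 342 and 375 CPM in cluster 10. Cluster 19, an unnamed endothelial cluster, had 219 CPM (181 to 262) and 173 CPM (150.03 to 198), so that cluster and the fibroblast-like class changed places between the libraries. Ackr4, which clears Ccl19, Ccl21 and Ccl25, led in cluster 19 with 99.2 CPM (74.3 to 129.8) and 120.4 CPM (101 to 142). It was also measured in fibroblast-like nuclei at 37.3 and 37.0 CPM and in adipocyte-like nuclei at 21.0 and 19.8 CPM, against 10.0 and 6.53 CPM in T cell-like nuclei, and it overlaps Acad11 on the other strand. Ackr1, known on the venules of many tissues, had 2.22 CPM (12 UMIs) and 2.77 CPM (20 UMIs) in fibroblast-like nuclei, and overlaps Cadm3 on its own strand.

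Cluster 19 could not be named because it mixed lymphatic and vascular genes. It had 468 CPM of Prox1 and 674 CPM of Vwf in 83 cKO-labelled nuclei, and 610 CPM of Prox1 and 598 CPM of Vwf in 141 flox nuclei. Summed lymphatic markers stood at 20.2% and 19.6% of their level in lymphatic endothelial-like nuclei. Summed vascular markers stood at 51.5% and 47.8% of their level in vascular endothelial-like nuclei.

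**Figure D3:**
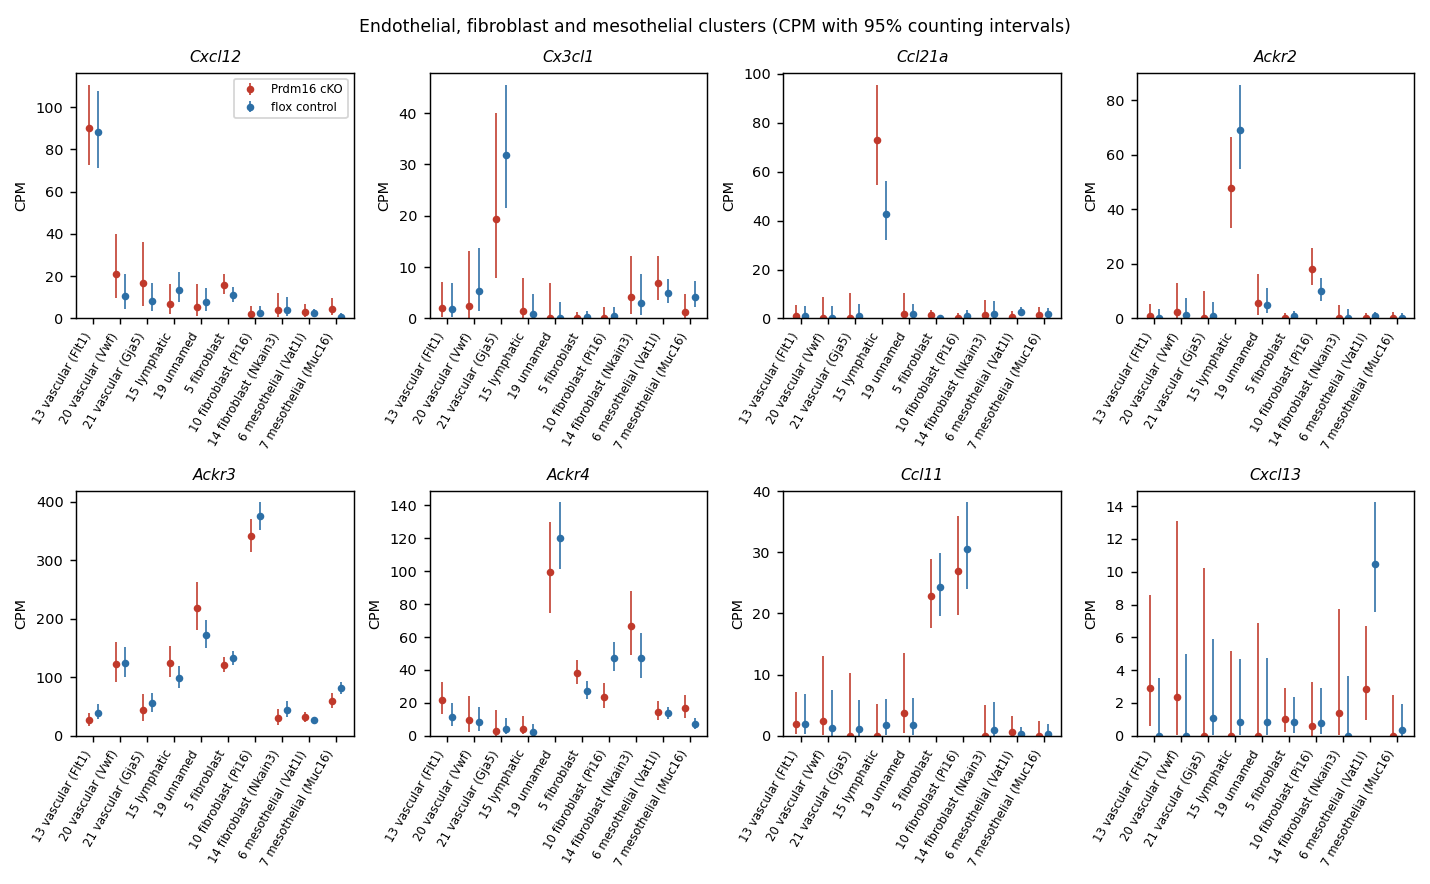
CPM (y axis, from 0, each panel on its own scale) of 8 members in 10 endothelial, fibroblast-like and mesothelial-like clusters (x axis, with a leading gene in brackets), with points for the library labelled Prdm16 cKO (red, left) and the flox control (blue, right) and bars for 95% counting intervals. Cxcl12 stands in cluster 13, Cx3cl1 in cluster 21, Ccl21a and Ackr2 in lymphatic nuclei, Ackr3 in cluster 10, and Ackr4 in cluster 19.

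Few members had their highest level in adipocyte-like nuclei. Cxcl10, an interferon-induced attractant of Cxcr3-bearing T cells, had 4.58 CPM (3.93 to 5.30) in cKO-labelled and 4.48 CPM (3.95 to 5.05) in flox adipocyte-like nuclei, and between 3.25 and 5.42 CPM in each of the 4 adipocyte-like clusters. Cxcl10 overlaps Art3 on the other strand. Cluster 4 came next in the cKO-labelled library with 4.37 CPM, and mesothelial-like nuclei in the flox control with 2.52 CPM. In neither library did the Cxcl10 interval lie apart from that of the next class. Ccl25, the thymus and gut ligand of Ccr9, was spread over all classes. It had 99.0 CPM (96.0 to 102) and 103 CPM (100.3 to 106) in adipocyte-like nuclei, and 49.6 and 49.1 CPM in cluster 17. Ccl25 overlaps Elavl1 on the other strand and made up 5415 of the 8888 ligand UMIs in the cKO-labelled library and 8297 of the 13818 in the flox control. With Ccl25 left out, the ligand sum in adipocyte-like nuclei was 26.0 and 24.7 CPM, against 700.3 and 770.0 CPM in cluster 17.

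Several inducible chemokines were nearly absent from these nuclei. Cxcl1 had fewer than 4 CPM in its highest class in each library. Counts in the cKO-labelled library and the flox control were 3 and 10 UMIs for Cxcl2, 2 and 2 for Cxcl3, 3 and 5 for Cxcl5, 2 and 10 for Ccl3, and 16 and 6 for Ccl8. The neutrophil receptors Cxcr2 and Cxcr1 had 17 and 29 UMIs and 1 and 0 UMI. Xcr1, the receptor of cross-presenting dendritic cells, had 10 and 33 UMIs, of which 6 and 16 were in dendritic-like nuclei. Cxcl14, a ligand made constitutively by epithelia, had 10 and 14 UMIs. Ccl20, Ccl17 and Cxcl15 had none in either library, which allows up to 3 UMIs in each and does not show absence.

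Leading classes were compared between ligands and their receptors. Of 37 known ligand and receptor pairs listed from textbook knowledge, 24 had both members at 50 UMIs or more, and 3 of these had both in the same class in both libraries: Ccl6 with Ccr1 and Ccl9 with Ccr1 in cluster 17, and Ccl2 with Ackr1 in fibroblast-like nuclei. The share of unrelated gene pairs that lead in the same class is not given, so this count has no background. The eotaxins Ccl11 and Ccl24 led in fibroblast-like and macrophage-like nuclei, while Ccr3 led in cluster 17. Ccl21a led in lymphatic nuclei and Ccr7 in T cell-like nuclei, and Cxcl12 led in vascular nuclei and Cxcr4 in B cell-like nuclei. Cxcl13, the B cell attractant that binds Cxcr5, led in B cell-like nuclei at 4.53 CPM (6 UMIs) in the cKO-labelled library and in cluster 17 at 7.28 CPM (4 UMIs) in the flox control, both on few counts. These are levels of RNA in separate nuclei and measure no contact between cells.

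Between the libraries, member levels were compared in 11 classes with at least 100 nuclei in each. A pair of a member and a class counts as past the fold where the CPM differed at least 1.5-fold and the counting interval of the log2 ratio (cKO-labelled over flox) left out 0. Of 160 such pairs with at least 20 UMIs, 8 were higher in the cKO-labelled library (5%, against 5.43% of all gene and class pairs), and 14 were lower (8.75%, against 2.81% of all). The median log2 ratio of the members was 0.01. With 1 library per genotype these counts compare the libraries, not the genotypes.

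**Figure D4:**
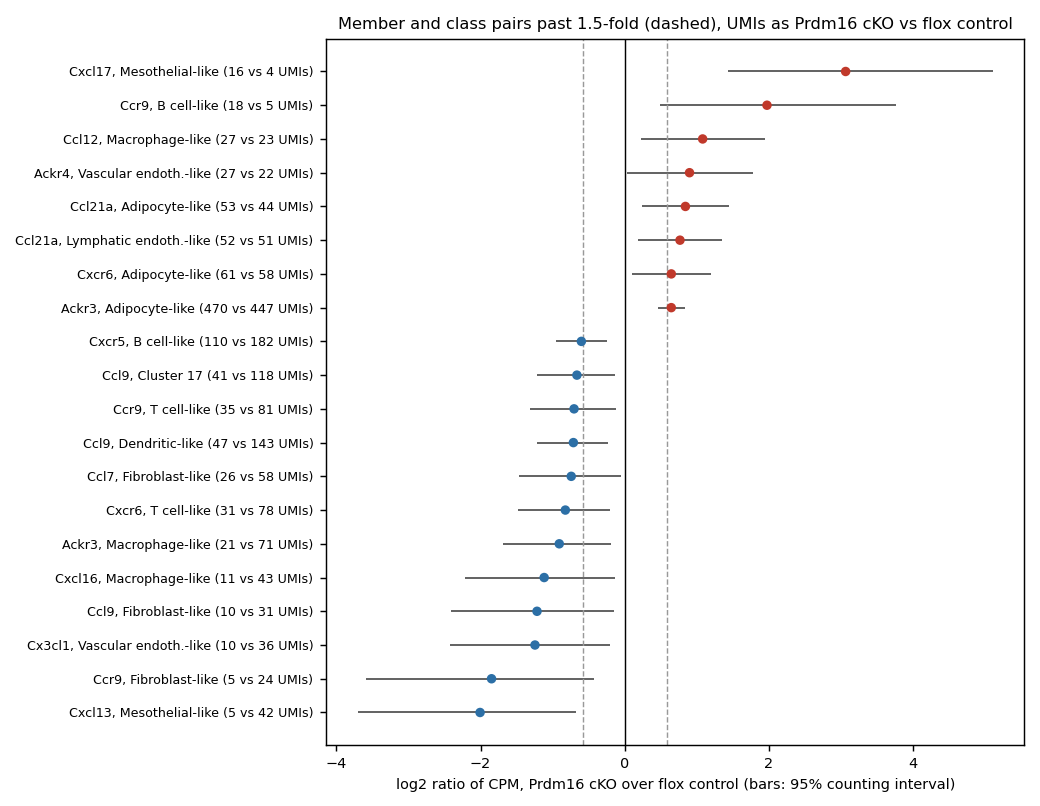
Log2 ratio of CPM, Prdm16 cKO-labelled over flox control (x axis), for 20 pairs of a member and a class past the fold (rows, with UMIs of both libraries), with bars for 95% counting intervals and dashed lines at 1.5-fold. The 8 pairs to the right of 0 run from 0.64 to 3.06, and the 12 to the left from -2.01 to -0.60.

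In dendritic-like nuclei 2 of 13 measured members were lower (2.50% of all genes there were) and 0 were higher (6.52%). Ccl9 had 40.9 and 67.1 CPM there, a log2 ratio of -0.71 (-1.22 to -0.23), and -0.55 and short of the fold as a mean of CPM per nucleus. Ccl9 was also lower in cluster 17 at -0.67 (-1.22 to -0.14), where 1 of 7 members was lower (1.97% of all genes) and 0 higher (4.77%), and in fibroblast-like nuclei at -1.22 (10 and 31 UMIs). Thinned to 1000 UMIs per nucleus it was not past the fold in cluster 17 (-0.41), and none of the 3 fibroblast-like clusters taken alone was past it. In macrophage-like nuclei its log2 ratio of -0.46 (-0.80 to -0.13) did not reach the fold. The summed macrophage markers in dendritic-like nuclei, which could carry Ccl9 RNA, stood at 24.0% of their own class level in the cKO-labelled library and 29.9% in the flox control (11 markers, none at 0), and their part in the difference was not tested.

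In macrophage-like nuclei 1 of 17 members was higher (4.20% of all genes) and 2 were lower (1.74%). Ccl12 was higher, with 10.3 against 4.87 CPM and a log2 ratio of 1.08 (0.22 to 1.95), from 13 of 544 cKO-labelled and 20 of 955 flox nuclei. Cxcl16 was lower at -1.12 (-2.22 to -0.14), and so was Ackr3, with 8.01 CPM (21 UMIs) in cKO-labelled and 15.04 CPM (71 UMIs) in flox nuclei, a log2 ratio of -0.91 (-1.69 to -0.19). Macrophage-like nuclei had the lowest Ackr3 of all classes in the cKO-labelled library. With doublets kept neither was past the fold, at -0.35 for Ackr3 and -0.79 for Cxcl16, and each library clustered on its own gave -0.67 for Ackr3, also not past it.

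In B cell-like nuclei 1 of 13 members was lower (4.06% of all genes) and 1 was higher (7.19%). Cxcr5 was lower at -0.60 (-0.96 to -0.25), close to the 1.5-fold line. Ccr9 was higher at 1.97 (0.49 to 3.76), with 18 UMIs in 9 of 186 cKO-labelled nuclei and 5 UMIs in 5 of 313 flox nuclei. Some marker sums were higher in the same cKO-labelled B cell-like nuclei. Summed T cell markers had 428 CPM, or 10.7% of their T cell-like level, against 196 CPM or 3.84% in flox nuclei (9 markers, none at 0). Summed adipocyte markers were at 48.1% and 25.9% of the level in adipocyte-like nuclei (8 markers, none at 0). Other sets went either way: macrophage markers had 2018 and 1840 CPM, but vascular endothelial markers had 663 and 969 CPM and fibroblast markers 633 and 816 CPM. Mesothelial markers (162 and 251 CPM) and dendritic markers (787 and 960 CPM) were also lower. The B cell markers themselves had 10186 CPM in cKO-labelled and 12260 CPM in flox nuclei. The part of these in the Cxcr5 and Ccr9 differences was not tested. With doublets kept neither pair was past the fold, at -0.47 for Cxcr5 and 0.60 for Ccr9, and a mean of CPM per nucleus gave -0.54 for Cxcr5.

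In T cell-like nuclei 2 of 14 members were lower (4.08% of all genes) and 0 were higher (5.91%). Cxcr6 had 23.9 against 42.4 CPM, a log2 ratio of -0.83 (-1.48 to -0.21), and Ccr9 had 27.03 against 44.1 CPM, a log2 ratio of -0.70 (-1.32 to -0.12). Summed adipocyte markers stood at 51.6% of their own class level in cKO-labelled and 35.2% in flox T cell-like nuclei (8 markers, none at 0), and their part was not tested. Neither call held with doublets kept (-0.46 for Cxcr6 and -0.30 for Ccr9) or as a mean of CPM per nucleus (-0.54 and -0.34). Thinned to 1000 UMIs per nucleus, Cxcr6 in T cell-like nuclei turned to 0.74.

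In adipocyte-like nuclei, the class that Adipoq-Cre addresses, 3 of 35 members were higher (5.39% of all genes) and 1 was lower (2.88%). Ackr3 had 12.02 CPM (11.0 to 13.2) in cKO-labelled and 7.70 CPM (6.999 to 8.44) in flox nuclei, a log2 ratio of 0.64 (0.45 to 0.83), with a UMI in 360 of 2940 and 375 of 4408 nuclei. It was higher in each of the 4 adipocyte-like clusters, at 0.61, 0.51, 0.93 and 0.81 in clusters 0, 1, 2 and 9, short of the fold in cluster 1. It was also short of the fold as a mean of CPM per nucleus (0.58) and thinned to 1000 UMIs per nucleus (0.46). T cell-like nuclei had 10.8 and 11.4 CPM of Ackr3, close to the adipocyte-like level. Summed fibroblast markers in adipocyte-like nuclei had 290 and 303 CPM (12 markers, none at 0), and their part in the Ackr3 difference was not tested. Cxcr6 at 0.64 (61 and 58 UMIs) and Ccl21a at 0.84 (53 and 44 UMIs) were higher at levels under 2 CPM. Both have their highest levels in other classes, and between 0.98% and 2.07% of adipocyte-like nuclei carried a UMI of each. With an assumed 10% of free RNA subtracted, on the summed profile of all kept nuclei of each library, the ratios were 0.81 for Cxcr6 and 0.89 for Ccl21a. The true share of free RNA was not measured, so these values do not show how much of either gene was carried over. In each of the 4 clusters taken alone the interval of both held 0. Summed lymphatic markers there had 86.3 and 87.4 CPM (7 markers, none at 0), and their part was not tested.

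Endothelial differences rested on few counts. Ccl21a in lymphatic endothelial-like nuclei was higher at 0.76 (0.18 to 1.35; 52 and 51 UMIs), 1 of 6 members (4.94% of all genes higher, 2.41% lower), and each library clustered on its own gave 0.00. In vascular endothelial-like nuclei 1 of 10 members was higher (7.70% of all genes) and 1 was lower (4.41%). Cx3cl1 was lower at -1.25 (-2.42 to -0.21), with UMIs in 7 of 290 cKO-labelled and 25 of 444 flox nuclei. Cluster 21, which held most of these UMIs, made up 50 and 104 of the nuclei, and within it the log2 ratio was -0.71 (-2.15 to 0.50), not past the fold. Ackr4 was higher at 0.90 (0.03 to 1.78; 27 and 22 UMIs), a call lost with TMM scaling (0.84), with doublets kept (0.49) and as a mean of CPM per nucleus (0.29). Cxcl12 had a log2 ratio of 0.57 (0.18 to 0.97), just short of the fold. Summed adipocyte markers stood at 39.8% of their own class level in cKO-labelled and 24.3% in flox vascular nuclei, and their part was not tested.

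In mesothelial-like nuclei 1 of 15 members was higher (4.19% of all genes) and 1 was lower (2.03%). Cxcl17, a secreted protein of mucosa, was higher at 3.06 (1.43 to 5.10), with 16 UMIs in 9 of 528 cKO-labelled and 4 UMIs in 4 of 1010 flox nuclei. Cxcl13 was lower at -2.01 (-3.70 to -0.67), with 5 UMIs in 3 cKO-labelled nuclei and 42 UMIs in 8 flox nuclei, so both differences rested on a handful of nuclei. Of the 42 flox UMIs, 41 were in cluster 6, led by Vat1l. Summed pancreatic acinar markers in mesothelial-like nuclei had 295 CPM in the cKO-labelled library and 77.2 CPM in the flox control (7 markers, none at 0). Acinar-like nuclei had 1 and 2 UMIs of Cxcl17, which overlaps 4732471J01Rik on the other strand, and the part of acinar RNA in the difference was not tested. In fibroblast-like nuclei 3 of 19 members were lower (2.09% of all genes) and 0 higher (4.40%): Ccl9 as above, Ccr9 at -1.85 (5 and 24 UMIs) and Ccl7, which draws monocytes through Ccr2, with a log2 ratio of -0.74 (26 and 58 UMIs). As a mean of CPM per nucleus Ccr9 there (-1.25), Ccl7 (-0.45) and Cxcl13 in mesothelial-like nuclei (-0.94) were not past the fold. Summed macrophage markers in fibroblast-like nuclei had 732 and 824 CPM (11 markers, none at 0) and summed T cell markers 96.5 and 96.0 CPM (9 markers, none at 0), and their part was not tested. Cluster 4, of low depth and unnamed, had 0 of 11 members past the fold in either direction (4.98% of all genes higher and 2.81% lower).

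Several other members described above had ratios short of the fold. Ccr3 in cluster 17 had a log2 ratio of 0.13 (-0.24 to 0.50) and Ccl11 in fibroblast-like nuclei -0.14 (-0.49 to 0.21). Ccr2 in dendritic-like nuclei was -0.28 (-0.44 to -0.12), and Ccl2 in fibroblast-like nuclei -0.32 (-0.93 to 0.27). Ackr4, whose leading cluster 19 had too few cKO-labelled nuclei (83) to be compared, had in fibroblast-like nuclei 0.01 (-0.26 to 0.28) and Ackr3 there -0.19 (-0.31 to -0.07). Cxcr4 in B cell-like nuclei was 0.00 (-0.91 to 0.89), an interval that holds a 1.5-fold difference either way.

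Other genes of the pathway were read from 5 lists. Of 23 genes of G protein and kinase signalling downstream of the receptors, 21 were measured in vascular endothelial-like nuclei, where 1 was higher (7.70% of all genes) and 5 were lower (4.41%; list median -0.12, against 0.04 for all genes), among them Gng2 (-0.66), a G protein subunit, and Prex1 (-0.62), a Rac exchange factor. Prex1 was also lower in adipocyte-like nuclei (-0.68), the sole gene of 23 past the fold there (2.88% of all genes lower; list median -0.18, against 0.04 for all genes), and in T cell-like nuclei (-0.79, with Plcb2 at -0.87; 2 of 23, against 4.08% of all genes; list median -0.38). Dock2, the Rac activator of migrating leukocytes, was lower in mesothelial-like nuclei (-0.75; 262 and 917 UMIs), 1 of 22 there (2.03% of all genes). The part of RNA from other cells in the Prex1 and Dock2 differences was not tested. In macrophage-like, dendritic-like and fibroblast-like nuclei none of the 23, 23 and 21 measured genes was past the fold.

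Of 12 genes of receptor desensitisation, Grk3, a receptor kinase, was higher in vascular (0.95), lymphatic (0.76; 1 of 6 genes, against 4.94% of all) and T cell-like nuclei (0.62; 1 of 8, against 5.91%). Grk5 (-0.64) and the arrestin Arrb1 (-0.70) were lower in vascular nuclei, where 2 of 8 were higher (7.70% of all genes) and 2 lower (4.41%), with a list median of 0.21. In adipocyte-like nuclei 1 of 11 was higher (Rgs16, 1.03; 5.39% of all genes) and 1 lower (Rgs14, -1.05; 2.88%), with a list median of -0.01. Among 17 other attractants and their receptors, Il34, a ligand of the macrophage receptor Csf1r, was higher in adipocyte-like nuclei (12.3 against 7.83 CPM, 0.65; 2 of 13 higher, against 5.39% of all genes; list median 0.10) and vascular nuclei (1.43; 1 of 8, against 7.70%). It was lower in mesothelial-like (-0.68; 1 of 11, against 2.03%), fibroblast-like (-0.65; 1 of 11, against 2.09%) and T cell-like nuclei (-1.63; 2 of 10, against 4.08%). Gpr183, the oxysterol receptor that positions leukocytes, was higher in macrophage-like nuclei (0.71; 1 of 11, against 4.20%) and was the other lower gene in T cell-like nuclei (-0.91).

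Of 23 NF-kappaB and cytokine genes, 18 were measured in adipocyte-like nuclei and none was past the fold, with a median log2 ratio of 0.04 against 0.04 for all genes there. In dendritic-like nuclei Relb (0.65) and Irf1 (0.60) were higher, 2 of 18 (6.52% of all genes; list median 0.12), and in macrophage-like nuclei Tnfaip3 (-0.95), a brake on NF-kappaB, was lower, 1 of 18 (1.74%; list median 0.08). Of 18 proteases and adhesion partners, Itgb2, the beta chain of leukocyte integrins, was lower in dendritic-like (-0.93) and T cell-like nuclei (-0.61), while Mme, a membrane peptidase, was higher in both (0.70 and 0.61). In dendritic-like nuclei 1 of 14 was higher (6.52% of all genes) and 1 lower (2.50%; list median -0.09). In T cell-like nuclei 1 of 13 was higher (5.91%) and 2 were lower (4.08%; list median -0.28), the other being the integrin chain Itgam (-0.80). None of 17 measured in adipocyte-like nuclei was past the fold (list median 0.02).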

How the data were processed

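Nuclei of 2 libraries were analysed from the deposited UMI counts, which the authors made with Cell Ranger 6.1.2 and mm10 as genome (per the submitters' processing notes). Gene annotation, intron use and strand use are not given in the sources. Nuclei with at least 500 UMIs, 300 genes and under 5% mitochondrial UMIs were kept. Scrublet's own threshold marked 0.0127% (cKO-labelled) and 0.0517% (flox) as doublets, too few to have worked, so 0.8% per 1000 nuclei with the highest scores were removed (495 and 1079). Both libraries were clustered together in scanpy 1.11.5 (2000 variable genes without members, 30 components, 20 neighbours, Leiden resolution 1) into 28 clusters. A cluster was named where at least 3 markers of 1 of 21 sets were in at least 5% of its nuclei at 2 times the mean of other clusters and no other set had more among its 10 leading genes. A further rule set after seeing the data kept cluster 19 unnamed (1.13% of cKO-labelled and 1.34% of flox nuclei).

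UMIs of each class were added up within a library and divided by the class total (CPM), with exact Poisson intervals. Ratios have exact conditional binomial intervals. Shares of nuclei are unthinned unless stated. TMM scaling used edgeR 4.0.16, as an alternative only. The ratio step was run on simulated independent Poisson counts, the model that the intervals assume. These lack any clumping of UMIs within nuclei, so the run checks the calculation and not the intervals of clumped counts. Members with at least 50 UMIs were named by the class of their highest level among classes with at least 50 nuclei. Pairs past the fold were named up to 12 in each direction by the interval bound nearest 0, 14 axis members were described whatever their values, and list genes were named where past the fold, at most 4 per list and class. The 2 lower pairs beyond 12 (Ccr9 in T cell-like and Ccl7 in fibroblast-like nuclei) were named after their values were seen. The members and lists were chosen with earlier results of these data known. Intervals cover counting error only, since animals were not replicated. Some items are not reported here, though counts over all members include them.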

Additional observations from a re-analysis of the deposited data

Results flagged for a closer look

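For 3 members the library ratio ran in opposite directions in different classes, with both classes past the fold. No test of these differences between classes was possible with 1 library per genotype, and they were not tested. For Ackr3 the log2 ratio (cKO-labelled over flox) in adipocyte-like nuclei minus that in macrophage-like nuclei was 1.554, from 0.64 and -0.91. For Cxcr6 the ratio in adipocyte-like nuclei minus that in T cell-like nuclei was 1.47, from 0.64 and -0.83. For Ccr9 the ratio in B cell-like nuclei exceeded that in fibroblast-like nuclei by 3.821 and that in T cell-like nuclei by 2.676, from 1.97, -1.85 and -0.70, on 18 and 5 UMIs in B cell-like nuclei.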

How the results depend on the processing

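No paired analysis was possible because each genotype has 1 library. In place of 8 higher and 14 lower pairs, a minimum of 50 UMIs gave 5 higher and 10 lower (of 90 pairs), and thinning to 1000 UMIs per nucleus gave 0 higher and 1 lower (of 53 pairs). Of the 22 pairs 8 had a thinned value and none of them stayed past the fold, so the 1 lower is another pair. Of the 22 pairs, 6 stayed past the fold under each of the other scalings, minimums, filters and clusterings of whole classes that gave a value (none had a thinned value): Ccl12 in macrophage-like, Ccl21a and Cxcr6 in adipocyte-like, Ccl9 in fibroblast-like, Cx3cl1 in vascular and Cxcl17 in mesothelial-like nuclei. In single clusters of the class, an alternative chosen after seeing the data, Ccl21a, Cxcr6, Ccl9 and Cx3cl1 of these 6 were past the fold in none, Cxcl17 was in both, and Ccl12 had no such value. With doublets kept 15 of 22 stayed, with a mean of CPM per nucleus 12 of 22, and with each library clustered on its own 17 of 21. Directions turned for Cxcr6 in T cell-like nuclei thinned (0.74) and, in single clusters, for Ackr4 in vascular cluster 21 (-0.62; 1 and 4 UMIs), Ccl7 in fibroblast-like cluster 14 (1.08; 3 and 2 UMIs) and Cx3cl1 in vascular cluster 13 (0.049; 2 and 2 UMIs), on counts too low to give a direction (intervals -6.24 to 2.72, -2.05 to 4.66 and -3.74 to 3.84). The cause was not tested. Between 21 and 27 of 39 members kept 1 leading class in both libraries (25 as reported). TMM scaling moved the median of all genes by over 0.1 in cluster 17 alone (-0.17). Pairs of under 20 UMIs are below what this depth resolves.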
